A study of Mus musculus with 9 samples.

Results

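The genes described here are those of the integrated stress response that run through the transcription factor ATF4, with the cytosolic tRNA synthetases that ATF4 can induce. Their names were listed by function: 9 stress regulators, 9 serine and one-carbon enzymes, 11 genes of amino acid synthesis and supply, 11 tRNA synthetases and Vldlr. Of the 42 names listed, 1 was a placeholder and matched no gene, so 41 members were found among the 24341 genes of the files. They were measured by poly(A) RNA-Seq in fibroblasts of the mouse embryo (MEFs), cells of connective tissue kept in culture, in 3 WT, 3 Atm-/- and 3 Sirt6-/- samples. Atm encodes a kinase that responds to DNA double-strand breaks and Sirt6 encodes a histone deacetylase. All samples carry the strain label C57BL/6, were grown in DMEM with fetal bovine serum, and were given no treatment that the labels name. The labels count p53-null and Atm and p53 double-null mice among the animals that gave cells, and the methods describe immortalized MEF lines from separate laboratories, of which the Atm-/- line also lacks p53 and the Sirt6-/- line is not said to. Effects of Atm, of p53 and of the line itself therefore cannot be told apart, and neither can those of Sirt6 and of its line. No source says whether the 3 samples of a genotype came from separate embryos or cultures, so p-values measure the spread between samples, which may be technical.

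The libraries held 32187040 to 33837949 counted reads each. At this depth, 3 reads correspond to 0.0856 to 0.0959 normalized CPM, a read count scaled to a common library size with TMM factors over all 9 samples. Sirt6 had 15.3, 12.9 and 15.0 CPM in WT and 0.123, 0.154 and 0.210 in Sirt6-/-. Atm RNA went against its label, with 48.2, 51.7 and 51.7 CPM in WT and 109, 102 and 102 in the libraries labelled Atm-/-, so a summed read count does not show the loss of the gene, and Atm-/- below always means the libraries with that label. Trp53, the p53 gene, had 223, 227 and 208 CPM in WT, 23.3, 27.0 and 27.4 in Atm-/- and 279, 282 and 276 in Sirt6-/-. Of 10 fibroblast markers, the summed level was 5974 to 6426 RPKM (reads scaled by transcript length and library size) in WT, 2646 to 2709 in Atm-/- and 4245 to 4333 in Sirt6-/-. Single markers did not all follow these sums. Thy1 had 24.4 ± 5.34 CPM in WT (mean ± SD, n = 3), 87.3 ± 4.24 in Atm-/- and 0.470 ± 0.504 in Sirt6-/-. Col1a2 had 4730.4 ± 549, 884 ± 20.8 and 7805 ± 244 CPM and Pdgfrb 77.8 ± 2.03, 38.7 ± 2.52 and 193 ± 3.59, in the same order, so that both were highest in Sirt6-/-, and Fap had no reads in WT. The 5 epithelial markers summed to 11.1 to 13.8 RPKM in WT, 28.5 to 31.9 in Atm-/- and 8.80 to 11.0 in Sirt6-/-. Most of the higher sum in Atm-/- was Krt18, with 7.21 ± 1.07 CPM in WT, 28.2 ± 2.70 in Atm-/- and 5.06 ± 0.621 in Sirt6-/-, while Krt8 had 8.97 ± 0.871, 10.3 ± 0.389 and 7.66 ± 1.09 CPM, and Krt14, Epcam and Cdh1 had means under 2 RPKM in each genotype. The 4 endothelial markers and the 4 leukocyte markers with a row stayed under 3 RPKM in every sample. The part of these marker differences in the results below was not tested.

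Cells that lack an amino acid, misfold proteins or lose haem phosphorylate the translation factor eIF2. General translation then falls, while the Atf4 mRNA, which carries short upstream reading frames, is translated more. ATF4 protein pairs with C/EBP family partners and binds C/EBP-ATF response elements, inducing genes that import and make amino acids, charge tRNAs, and in the end switch the response off again. Because much of the control of ATF4 lies in translation, its mRNA level is not its protein level, and no protein was measured in these files.

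The promoter letters show how much of the list holds a match to the core of that element near its start site. The members were listed for their part in the ATF4 response, so a share above that of all genes may follow from that choice. RefSeq promoter windows (GRCm38.p6, 250 bases before to 50 bases after the start site) were matched for 31 of the 41 members. TGATGNAA, the core of the element, was found on either strand in 12 of the 31 windows (38.7%), against 4.51% of 27025 genes. It stood in 4 of 8 windows of stress regulators, 3 of 8 of amino acid synthesis and supply, 4 of 6 of tRNA synthetases, 0 of 8 of serine and one-carbon enzymes, and in that of Vldlr. The palindrome TGACGTCA, the cyclic AMP response element, was found in 1 of the 31 (Ppp1r15a), against 2.03% of all genes. No string can match both motifs at one position. A match is a run of letters and not a shown binding site.

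The 6 windows printed here are from members named below, each with the match before the start site. They are written 5′ to 3′ along the gene's strand, with the matched letters in capitals and 24 bases on either side, or fewer where the start site comes first.
Atf3: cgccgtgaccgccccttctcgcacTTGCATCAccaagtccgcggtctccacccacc
Chac1: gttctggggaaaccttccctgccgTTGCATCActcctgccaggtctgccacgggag
Nupr1: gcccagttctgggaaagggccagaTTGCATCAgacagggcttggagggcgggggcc
Asns: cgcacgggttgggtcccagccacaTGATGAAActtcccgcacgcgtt
Aars: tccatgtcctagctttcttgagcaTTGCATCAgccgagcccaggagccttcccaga
Vldlr: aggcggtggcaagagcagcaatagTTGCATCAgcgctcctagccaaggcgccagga
In GRCm38.p6 these windows lie at chr1:191183412-191183467 on the - strand, chr2:119351025-119351080 on the + strand, chr7:126625549-126625604 on the - strand, chr6:7693210-7693256 on the - strand, chr8:111033706-111033761 on the + strand and chr19:27216796-27216851 on the + strand, in that order. The match begins 110 bases before the start site in Atf3, 193 in Chac1, 110 in Nupr1, 23 in Asns, 112 in Aars and 200 in Vldlr. Atf3, Chac1, Nupr1, Aars and Vldlr hold the same 8 letters, and Asns holds TGATGAAA. The other 6 members with a match were Trib3, Yars, Gars, Slc1a4, Pycr1 and Iars, of which Trib3, Yars and Iars had it only after the start site. Eif4ebp1, Aldh1l2, Cth, Slc7a5, Slc7a3, Cars, Lars, Mars, Nars and Wars were not matched to a window.

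The first comparison asks how the response differed in Atm-/- from WT. All 41 members passed the low-count filter in each comparison. Cbs, with no WT read, passed against WT only through the knockout libraries, and is counted among the members higher in both. In Atm-/-, 29 were lower and 8 higher than in WT, where 33.6% of the 13283 genes tested were lower and 34.7% higher. The second comparison asks the same of Sirt6-/-, where 30 members were lower and 5 higher, while 37.4% of 13206 genes were lower and 39.2% higher. Set directly against Sirt6-/-, Atm-/- had 23 members higher and 13 lower, with 38.0% of 13460 genes higher and 37.8% lower. The median log2 fold change of the members was -0.34 in Atm-/- and -0.42 in Sirt6-/- against WT, and 0.24 in Atm-/- against Sirt6-/-. Over all genes tested the medians were 0.02, 0.02 and 0.00. The comparisons with WT share their 3 WT samples and are given side by side only. A call means an adjusted p under 0.05 in the quasi-likelihood test of edgeR, adjusted by Benjamini-Hochberg over all genes tested. Fewer cells in a given state and less RNA per cell cannot be told apart in these bulk samples.

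With library totals in place of TMM, the median of all genes in Atm-/- against WT moved up by 0.16 on the log2 scale, and the called genes split into 6156 higher and 3326 lower instead of 4611 and 4469. The members were then 22 lower and 9 higher in Atm-/-, with a median log2 fold change of -0.17. In Sirt6-/- against WT the median of all genes moved up by 0.09. The called genes there split into 5796 higher and 4317 lower instead of 5176 and 4938. The members were then 25 lower and 7 higher in Sirt6-/-, with a median of -0.33. Among the WT libraries, replicate 2 had the lowest value for 34 of the 40 members with WT reads, and for 35.8% of 13550 genes. Without WT replicate 2, the members were 30 lower and 8 higher in Atm-/-, and 31 lower and 5 higher in Sirt6-/-.

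**Figure D1:**
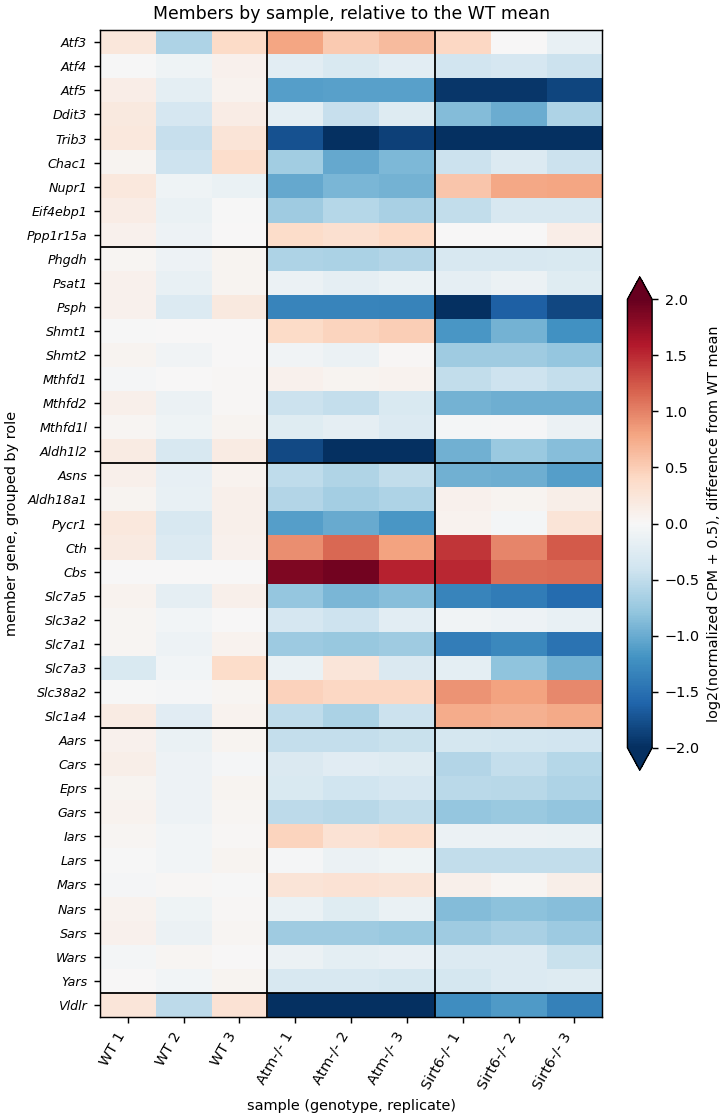
Each row is a member and each column a sample, and the colour gives log2(normalized CPM + 0.5) minus the same for the WT mean, with values past 2 drawn at the end of the scale. Blue rows fill most of the Atm-/- and Sirt6-/- columns, while Cth, Cbs and Slc38a2 are red in both, and the WT replicate 2 column is bluer than the other WT columns in most rows.

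Among the 9 stress regulators, 7 were lower and 2 higher in Atm-/- than in WT, and 6 were lower and 1 higher in Sirt6-/-. Against Sirt6-/-, Atm-/- had 6 higher and 3 lower. Of all genes tested against WT, 33.6% were lower and 34.7% higher in Atm-/-, and 37.4% and 39.2% in Sirt6-/-. Between the knockouts, 38.0% of all genes were higher and 37.8% lower in Atm-/-. Atf4 itself (chr15:80255184-80257541, + strand, positions here from the GENCODE annotation of GRCm38) had the highest level per length of these genes in WT, 214 ± 13.8 RPKM (SD, n = 3). Its normalized CPM were 390.1, 368 and 417 in WT, 339, 317 and 338 in Atm-/-, and 301, 309 and 292 in Sirt6-/-. No WT value overlapped either knockout, and the steps were small. Atf4 fell by 0.25 on the log2 scale in Atm-/- (standard error 0.05, adjusted p = 0.000542) and by 0.38 in Sirt6-/- (standard error 0.05, adjusted p = 8.4e-06). With library totals its call in Atm-/- was lost (log2 fold change -0.09, adjusted p = 0.147).

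Trib3, a pseudokinase that ATF4 induces and that restrains ATF4, showed the largest fall of the regulators. Its CPM were 40.6, 25.3 and 41.8 in WT, 10.2, 8.25 and 9.19 in Atm-/-, and 6.87, 7.57 and 6.27 in Sirt6-/-. Every knockout value lay under every WT value, and the lowest WT library, replicate 2, was still more than 2-fold above the highest knockout library. Trib3 fell by 1.97 log2 units in Atm-/- (standard error 0.16, adjusted p = 6.0e-08) and by 2.38 in Sirt6-/- (standard error 0.17, adjusted p = 6.0e-09), and it was higher in Atm-/- than in Sirt6-/- (log2 fold change 0.42 with a standard error of 0.13, adjusted p = 0.00753). Atf5, a transcription factor whose mRNA is also translated more when eIF2 is phosphorylated, followed the same order, with CPM of 138, 109 and 132 in WT, 57.9, 58.6 and 59.1 in Atm-/-, and 32.2, 32.4 and 34.9 in Sirt6-/-. The 3 genotypes did not overlap for Atf5. It fell by 1.11 (standard error 0.07, adjusted p = 5.5e-09) and 1.93 (standard error 0.08, adjusted p = 1.5e-11) on the log2 scale, and differed by 0.83 between the knockouts (adjusted p = 8.4e-11). Exons of Nup62 and Il4i1 on the opposite strand cover 4.1% of the exon bases of Atf5, and whether the reads were counted by strand is not stated.

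Ddit3 encodes CHOP, the factor linked to cell death under prolonged stress. Its CPM were 34.6, 23.7 and 33.3 in WT, 26.3, 21.6 and 25.0 in Atm-/-, and 16.4, 15.0 and 19.5 in Sirt6-/-. The Sirt6-/- samples lay under all the others, while WT replicate 2 lay within the Atm-/- range. Ddit3 fell by 0.85 log2 units in Sirt6-/- (standard error 0.13, adjusted p = 4.1e-05). Its smaller difference in Atm-/- (log2 fold change -0.34 with a standard error of 0.12, adjusted p = 0.0263) passed in 2 of 6 fits that left out 1 library, and was lost without WT replicate 1, WT replicate 3, Atm-/- replicate 2 or Atm-/- replicate 3 (adjusted p of 0.053 to 0.127) and with library totals (adjusted p = 0.228). Between the knockouts Ddit3 was higher in Atm-/- (log2 fold change 0.53 with a standard error of 0.10, adjusted p = 8.1e-05).

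Chac1, which degrades glutathione and is a target of ATF4 and CHOP, was lowest in Atm-/-. Its CPM were 24.9, 17.8 and 30.5 in WT, 14.5, 11.5 and 12.6 in Atm-/-, and 17.5, 19.7 and 17.6 in Sirt6-/-. All Atm-/- values were under those of the other genotypes, and Sirt6-/- overlapped the WT range at WT replicate 2. The fall in Atm-/- was 0.93 log2 units (standard error 0.16, adjusted p = 0.000105), and Atm-/- was lower than Sirt6-/- by 0.50 (adjusted p = 0.000179). In Sirt6-/- Chac1 passed narrowly (log2 fold change -0.42 with a standard error of 0.15, adjusted p = 0.0187), and its call was lost without WT replicate 3, Sirt6-/- replicate 1 or Sirt6-/- replicate 3 (adjusted p of 0.0633 to 0.12) and with library totals (adjusted p = 0.0572).

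Nupr1, a small stress-induced chromatin protein, went opposite ways in the knockouts. Its CPM were 21.7, 17.5 and 17.0 in WT, 8.89, 9.65 and 9.45 in Atm-/-, and 27.6, 32.2 and 32.6 in Sirt6-/-, and the 3 genotypes did not overlap. It fell by 1.01 log2 units in Atm-/- (standard error 0.12, adjusted p = 2.4e-06) and rose by 0.72 in Sirt6-/- (standard error 0.10, adjusted p = 1.7e-05). The direct comparison of Atm-/- with Sirt6-/- gave -1.72 (standard error 0.09, adjusted p = 5.8e-13). Eif4ebp1, which encodes a repressor of cap-dependent translation, fell in both, from 209, 172 and 187 in WT to 115, 127 and 119.8 in Atm-/- and 135, 151 and 151 in Sirt6-/-. Neither knockout overlapped WT, and the log2 fold changes were -0.66 (adjusted p = 4.6e-07) and -0.38 (adjusted p = 0.000141).

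The remaining regulators were higher in Atm-/-. Atf3, an early stress factor that can repress or activate, had CPM of 6.84, 3.58 and 7.62 in WT, 10.3, 8.48 and 9.16 in Atm-/-, and 7.82, 5.78 and 5.13 in Sirt6-/-. The Atm-/- values lay above all others, and WT and Sirt6-/- covered the same range. Atf3 rose in Atm-/- (log2 fold change 0.62 with a standard error of 0.21, adjusted p = 0.0175), a call that was lost without Atm-/- replicate 1 (log2 fold change 0.55, adjusted p = 0.0776), and its difference in Sirt6-/- did not pass (log2 fold change 0.05 with a standard error of 0.24, adjusted p = 0.846). Atm-/- was above Sirt6-/- by 0.58 log2 units (adjusted p = 0.00184). Ppp1r15a encodes GADD34, which directs a phosphatase to eIF2 and so ends the response, and its CPM were 23.3, 20.4 and 22.1 in WT, 28.4, 27.4 and 28.9 in Atm-/-, and 22.0, 22.1 and 24.1 in Sirt6-/-. Again all Atm-/- values were highest. It rose by 0.36 log2 units in Atm-/- (standard error 0.08, adjusted p = 0.00120), and in Sirt6-/- the log2 fold change was 0.05 (standard error 0.09, adjusted p = 0.594).

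**Figure D2:**
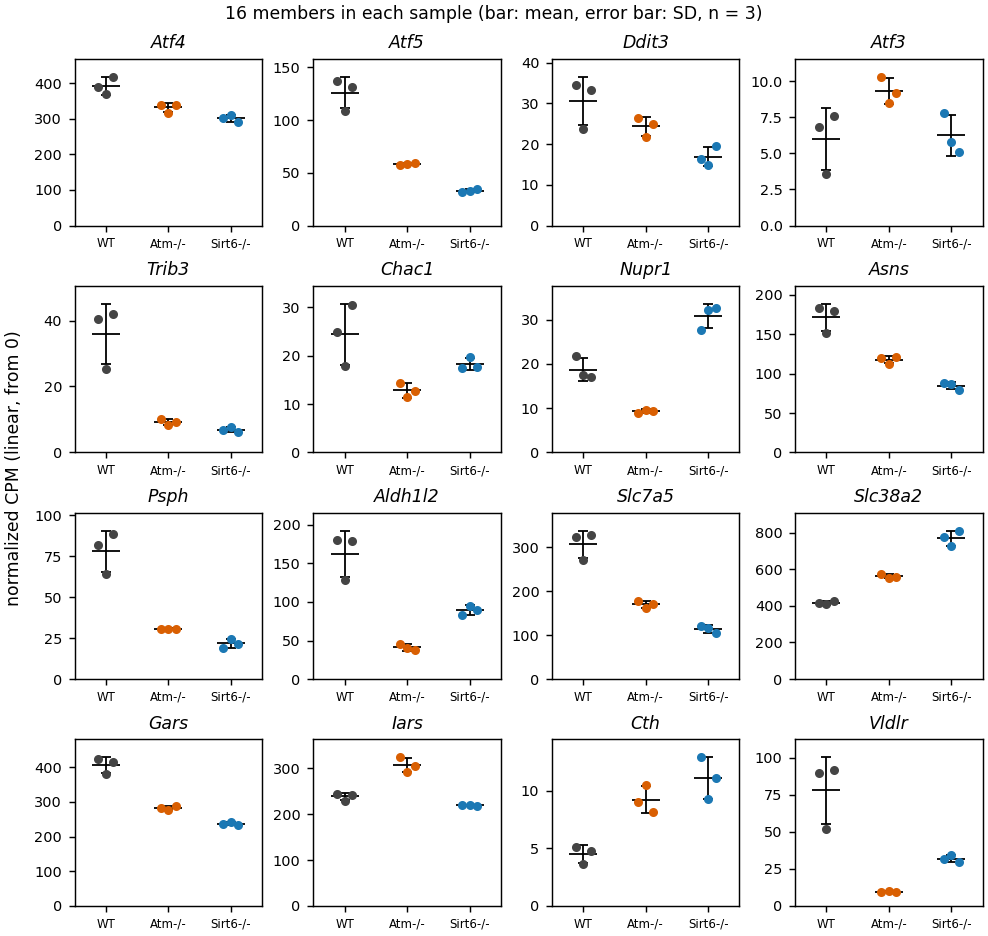
Normalized CPM of 16 members in each of the 9 samples, on linear axes from 0, with the mean as a bar and the SD as an error bar (n = 3 a genotype). Trib3, Psph and Aldh1l2 drop in both knockouts, Nupr1 falls in Atm-/- and rises in Sirt6-/-, and Slc38a2 and Cth are above WT in both.

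The serine and one-carbon enzymes turn a glycolytic intermediate into serine and carry its carbon on folate. In Atm-/-, 6 of the 9 were lower and 1 higher than in WT, where 33.6% of all genes tested were lower and 34.7% higher. In Sirt6-/-, 8 were lower and 0 higher, where 37.4% of all genes tested were lower and 39.2% higher. The median log2 fold change of the 9 in Sirt6-/- was -0.73. With library totals, 4 were lower and 2 higher in Atm-/-, and 7 lower and 0 higher in Sirt6-/-. Per length, Phgdh had the highest level of all members in WT, with 328 ± 20.4 RPKM.

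Of the 3 steps of serine synthesis, Psph, the phosphatase of the last step, moved most. Its CPM were 82.0, 64.3 and 88.5 in WT, 30.9, 30.9 and 30.3 in Atm-/-, and 19.2, 24.6 and 21.7 in Sirt6-/-, and the genotypes did not overlap. It fell by 1.36 log2 units in Atm-/- (standard error 0.10, adjusted p = 1.1e-08) and by 1.84 in Sirt6-/- (standard error 0.11, adjusted p = 1.3e-09), and was 0.50 higher in Atm-/- than in Sirt6-/- (adjusted p = 1.8e-05). A transcript of Cct6a on the opposite strand shares 10.4% of the exon bases of Psph, so part of its reads may belong to that gene. Phgdh, the first step, fell in both with no overlap: its CPM were 671, 605 and 676 in WT, 425, 419 and 432 in Atm-/-, and 522, 522 and 525 in Sirt6-/-. Here Atm-/- was the lower of the knockouts, with log2 fold changes of -0.62 (adjusted p = 3.0e-08) and -0.31 (adjusted p = 3.6e-05) against WT and -0.29 between them (adjusted p = 1.6e-07). The annotation also holds a processed pseudogene of Phgdh, and how shared reads were counted is not given in the sources used here.

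Psat1, the aminotransferase between these steps, showed small differences. Its CPM were 494, 419.8 and 482 in WT, 428, 411 and 423 in Atm-/-, and 410.0, 428 and 392 in Sirt6-/-. WT replicate 2 lay inside the range of both knockouts. The difference was -0.15 in Atm-/- (standard error 0.06, adjusted p = 0.0250), which passed in 1 of 6 fits that left out 1 library, the one without WT replicate 2, with an adjusted p of 0.0627 to 0.12 in the others. With library totals it changed sign and did not pass (log2 fold change 0.01, adjusted p = 0.866). In Sirt6-/- it was -0.18 (adjusted p = 0.0123), lost without Sirt6-/- replicate 3 (adjusted p = 0.0654) and with library totals (adjusted p = 0.174). Between the knockouts the log2 fold change was 0.04 (standard error 0.04, adjusted p = 0.307), and with library totals it passed (0.10, adjusted p = 0.0226).

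Shmt1 and Shmt2 split serine into glycine and a folate-bound carbon, in the cytosol and in mitochondria. Under TMM, Shmt1 was the only enzyme of this group called higher in Atm-/-, with CPM of 67.2, 67.8 and 67.8 in WT, 88.4, 92.1 and 95.6 in Atm-/-, and 30.0, 34.9 and 29.0 in Sirt6-/-. The genotypes stood in 3 separate ranges. It rose by 0.44 log2 units in Atm-/- (standard error 0.05, adjusted p = 3.8e-06) and fell by 1.11 in Sirt6-/- (standard error 0.07, adjusted p = 2.8e-09). The direct comparison gave 1.56 (adjusted p = 7.2e-15). Exons of Smcr8 on the opposite strand cover 4.7% of Shmt1. Shmt2 had CPM of 341, 313 and 331 in WT, 311, 303 and 334 in Atm-/-, and 201, 201 and 191 in Sirt6-/-, so that WT and Atm-/- overlapped and Sirt6-/- stood below both. It fell by 0.73 log2 units in Sirt6-/- (standard error 0.05, adjusted p = 2.7e-09), while in Atm-/- the log2 fold change was -0.06 (standard error 0.05, adjusted p = 0.283).

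Mthfd2, the mitochondrial dehydrogenase that oxidises the carbon on folate, was lower in both. Its CPM were 161, 138 and 153 in WT, 112, 108 and 121 in Atm-/-, and 78.1, 76.5 and 76.0 in Sirt6-/-, without overlap between genotypes. The falls were 0.41 log2 units in Atm-/- (standard error 0.06, adjusted p = 3.2e-05) and 0.97 in Sirt6-/- (standard error 0.06, adjusted p = 9.3e-10). Mthfd1l, which releases formate from mitochondria, had CPM of 114, 104 and 114 in WT, 93.3, 97.0 and 91.7 in Atm-/-, and 108, 109 and 102 in Sirt6-/-. Atm-/- lay under WT, and Sirt6-/- overlapped the WT range. It fell by 0.24 log2 units in Atm-/- (adjusted p = 0.00112), which was lost with library totals (adjusted p = 0.218), and did not pass in Sirt6-/- (-0.06, adjusted p = 0.344), except without WT replicate 2 (adjusted p = 0.0494). Mthfd1, the cytosolic enzyme that takes up formate, fell by 0.46 log2 units in Sirt6-/- (adjusted p = 4.0e-07). In Atm-/- its log2 fold change was 0.06 (adjusted p = 0.199), and with library totals it passed as higher (0.23, adjusted p = 0.000278).

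Aldh1l2, a mitochondrial enzyme that burns folate-bound carbon to make NADPH, had the widest range of this group. Its CPM were 180.2, 128 and 179.5 in WT, 45.4, 39.9 and 37.7 in Atm-/-, and 82.4, 95.3 and 89.0 in Sirt6-/-. No genotype overlapped another, and Atm-/- was lowest. The fall was 1.99 log2 units in Atm-/- (standard error 0.11, adjusted p = 8.2e-10) and 0.87 in Sirt6-/- (standard error 0.10, adjusted p = 2.2e-06). Atm-/- was lower than Sirt6-/- by 1.11 log2 units (adjusted p = 4.6e-12). An opposite-strand gene, D10Wsu102e, shares 14.1% of its exon bases.

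Among the 11 genes of amino acid synthesis and supply, 7 were lower and 3 higher in Atm-/- than in WT, and 5 lower and 4 higher in Sirt6-/-. In Atm-/- this was 63.6% lower and 27.3% higher, against 33.6% and 34.7% of all genes tested. In Sirt6-/- it was 45.5% and 36.4%, near the 37.4% and 39.2% of all genes tested. The median log2 fold change of the group there was 0.09. With library totals the Sirt6-/- split became 3 lower and 5 higher, and the Atm-/- counts were again 7 and 3. Asns, the asparagine synthetase that is a standard readout of ATF4, had CPM of 184, 152 and 179 in WT, 119.6, 113 and 121 in Atm-/-, and 87.7, 87.1 and 79.2 in Sirt6-/-. The 3 ranges were separate. Asns fell by 0.55 log2 units in Atm-/- (standard error 0.07, adjusted p = 3.7e-06) and by 1.02 in Sirt6-/- (standard error 0.07, adjusted p = 4.6e-09), and was 0.48 higher in Atm-/- than in Sirt6-/- (adjusted p = 2.9e-08).

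Both genes of proline synthesis were lower in Atm-/-. Aldh18a1, which makes the proline precursor in mitochondria, had CPM of 197, 171 and 205 in WT, 126, 119 and 124 in Atm-/-, and 202, 199 and 207 in Sirt6-/-. Pycr1, the enzyme of the final step, had CPM of 14.5, 9.75 and 13.4 in WT, 5.48, 5.91 and 5.26 in Atm-/-, and 13.0, 12.0 and 14.9 in Sirt6-/-. For both genes Atm-/- lay under every other sample, and Sirt6-/- overlapped WT. In Atm-/- they fell by 0.64 log2 units (standard error 0.06, adjusted p = 3.8e-07) and 1.18 (standard error 0.15, adjusted p = 8.3e-06). In Sirt6-/- the log2 fold changes were 0.09 (standard error 0.06, adjusted p = 0.208) and 0.09 (standard error 0.14, adjusted p = 0.594), and with library totals Aldh18a1 passed as higher there (0.18, adjusted p = 0.0169). Atm-/- was lower than Sirt6-/- by 0.71 log2 units (adjusted p = 2.9e-12) and 1.25 (adjusted p = 1.5e-08).

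Cth and Cbs, the enzymes of the transsulfuration route from homocysteine to cysteine, were higher in both knockouts. Cth had CPM of 5.11, 3.61 and 4.79 in WT, 8.97, 10.5 and 8.18 in Atm-/-, and 12.9, 9.30 and 11.1 in Sirt6-/-, and each knockout value was above each WT value. It rose by 1.02 log2 units in Atm-/- (standard error 0.16, adjusted p = 6.2e-05) and by 1.30 in Sirt6-/- (standard error 0.17, adjusted p = 5.7e-06), and the difference between the knockouts did not pass (log2 fold change -0.26 with a standard error of 0.13, adjusted p = 0.0861). Without Atm-/- replicate 2 or Sirt6-/- replicate 2 that difference passed, with adjusted p of 0.0281 and 0.0229. Cbs had no read in any of the 3 WT libraries, 46, 49 and 32 reads in Atm-/- and 30, 19 and 20 in Sirt6-/-. Set against 3 reads in a WT library, the mean of 1.22 ± 0.244 CPM in Atm-/- was at least 12.8-fold higher and that of 0.702 ± 0.189 in Sirt6-/- at least 7.32-fold higher. Both calls passed (adjusted p = 4.5e-06 and 3.5e-05), at levels near 1 CPM. Against WT, Cbs passed the low-count filter only through the knockout libraries where it was high. Its calls against WT are therefore not independent of that selection. Between the knockouts Cbs passed narrowly (log2 fold change 0.81 with a standard error of 0.36, adjusted p = 0.0496), in 2 of 6 fits that left out 1 library. It was lost without Atm-/- replicate 1, Atm-/- replicate 2, Sirt6-/- replicate 2 or Sirt6-/- replicate 3 (adjusted p of 0.123 to 0.151), in the fit of all 9 samples (0.0831), with no low-count filter (0.0513), with the replicate block (0.0766) and in DESeq2's Wald test (0.0891).

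The transporters did not move together. Slc7a5, the light chain of the carrier for large neutral amino acids, had CPM of 322, 270.4 and 327 in WT, 178, 162 and 169.9 in Atm-/-, and 122, 116 and 104 in Sirt6-/-. Slc7a1, the carrier of arginine and lysine, had CPM of 280.4, 255 and 287 in WT, 166, 162 and 168 in Atm-/-, and 105, 112 and 98.2 in Sirt6-/-. For both, the order was WT, Atm-/-, Sirt6-/- with no overlap. Slc7a5 fell by 0.86 log2 units in Atm-/- (standard error 0.07, adjusted p = 3.2e-08) and 1.42 in Sirt6-/- (standard error 0.07, adjusted p = 1.8e-10). Slc7a1 fell by 0.74 log2 units (standard error 0.05, adjusted p = 8.3e-09) and 1.38 (standard error 0.06, adjusted p = 2.3e-11). The direct comparison of Atm-/- with Sirt6-/- gave 0.58 for Slc7a5 (adjusted p = 3.3e-09) and 0.66 for Slc7a1 (adjusted p = 9.2e-11).

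Slc3a2, the heavy chain that pairs with Slc7a5, had smaller fold changes than its partner. It fell by 0.33 log2 units in Atm-/- (adjusted p = 7.9e-05). Its log2 fold change in Sirt6-/- was -0.11 (standard error 0.05, adjusted p = 0.0489) and passed in 1 of 6 fits that left out 1 library, the one without WT replicate 2. In the other 5 the adjusted p was 0.0554 to 0.157, with the replicate block it was 0.0578, with library totals 0.756, in the fit of all 9 samples 0.063 and with the stricter low-count filter 0.0639. Slc7a3, another cationic carrier, was at low counts, with 26, 33 and 50 reads in WT, 34, 50 and 28 in Atm-/- and 30, 14 and 11 in Sirt6-/-. Its CPM were 0.815, 1.06 and 1.59 in WT, 0.981, 1.43 and 0.827 in Atm-/-, and 0.920, 0.433 and 0.330 in Sirt6-/-, so that Sirt6-/- replicate 1 overlapped WT. The call in Sirt6-/- (log2 fold change -1.03 with a standard error of 0.45, adjusted p = 0.0470) was lost without WT replicate 3, Sirt6-/- replicate 2 or Sirt6-/- replicate 3 (adjusted p of 0.14 to 0.211), with the replicate block (0.073), in DESeq2's Wald test (0.0733) and with library totals (adjusted p = 0.0677). Between the knockouts it did not pass (log2 fold change 0.95 with a standard error of 0.43, adjusted p = 0.0506), but it passed with library totals (adjusted p = 0.0386), with DESeq2 size factors (0.0488), with no low-count filter (0.0399), and without Atm-/- replicate 3 (adjusted p = 0.0408) or Sirt6-/- replicate 1 (0.0104).

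Slc38a2, the sodium-coupled carrier of small neutral amino acids that cells raise on starvation, was higher in both knockouts. Its CPM were 413, 408 and 425 in WT, 573, 554 and 555 in Atm-/-, and 777, 724 and 807 in Sirt6-/-, in 3 separate ranges. It rose by 0.43 log2 units in Atm-/- (standard error 0.04, adjusted p = 3.2e-07) and 0.89 in Sirt6-/- (standard error 0.05, adjusted p = 3.1e-10). Slc1a4, an exchanger of alanine, serine and cysteine, had CPM of 49.1, 37.0 and 45.5 in WT, 30.5, 28.1 and 32.1 in Atm-/-, and 73.1, 71.3 and 73.8 in Sirt6-/- and went opposite ways, with Atm-/- under and Sirt6-/- above all WT samples. The log2 fold changes were -0.54 (standard error 0.10, adjusted p = 0.000158) and 0.73 (standard error 0.08, adjusted p = 1.7e-06), and -1.26 in Atm-/- against Sirt6-/- (adjusted p = 1.1e-13).

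**Figure D3:**
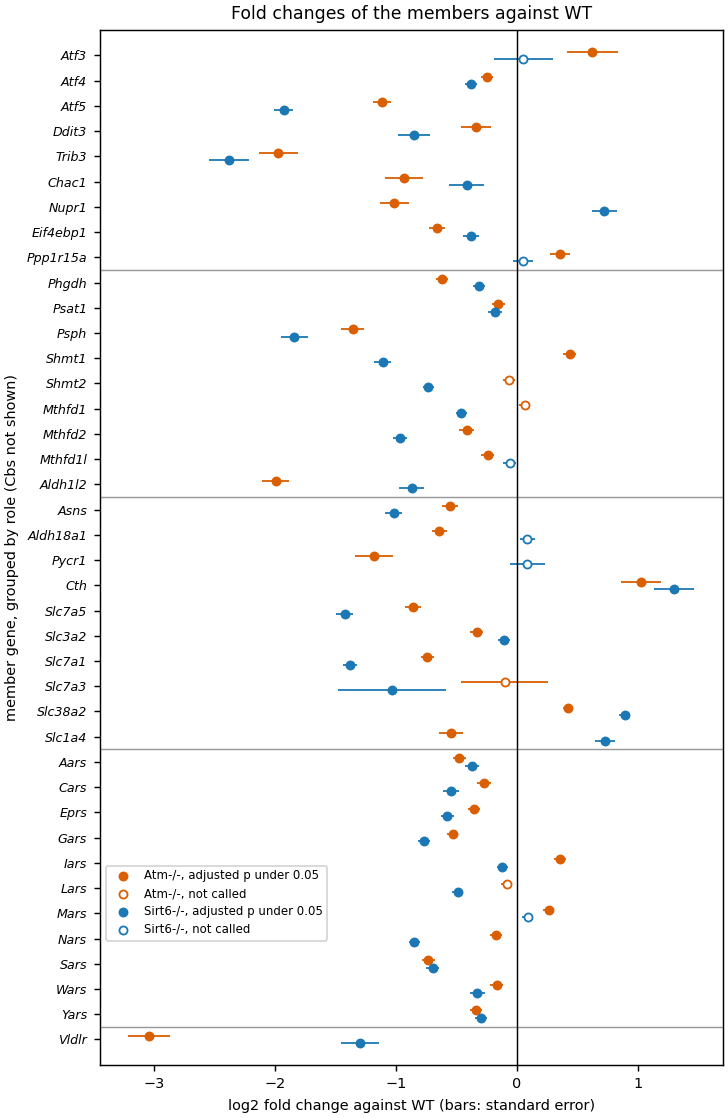
Fitted log2 fold changes of 40 members against WT, with standard errors as bars, in Atm-/- (orange) and Sirt6-/- (blue). Filled points have an adjusted p under 0.05, open points do not, and Cbs is left out because it had no WT read. Most points of both colours lie left of 0, while Nupr1, Shmt1 and Slc1a4 are among those that lie on opposite sides in the knockouts.

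Cytosolic tRNA synthetases attach each amino acid to its tRNA. Of the 11 members, 8 were lower and 2 higher in Atm-/- than in WT, and 10 were lower and 0 higher in Sirt6-/-. Against Sirt6-/-, Atm-/- had 8 higher and 1 lower. Of all genes tested against WT, 33.6% were lower and 34.7% higher in Atm-/-, and 37.4% and 39.2% in Sirt6-/-. Between the knockouts, 38.0% of all genes were higher and 37.8% lower in Atm-/-. With library totals the members were 5 lower and 2 higher, 9 lower and 1 higher, and 8 higher and 0 lower. The changes were smaller than among the regulators, from -0.73 to 0.36 on the log2 scale in Atm-/- and from -0.85 to 0.09 in Sirt6-/-. Per length, Gars was highest in WT with 159.8 ± 9.29 RPKM.

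Sars, for serine, fell in both, with CPM of 386, 333 and 371 in WT, 222, 221 and 217 in Atm-/-, and 221, 232 and 219 in Sirt6-/-. The knockouts overlapped each other and lay under WT. Its log2 fold changes were -0.73 (standard error 0.05, adjusted p = 1.6e-08) and -0.70 (standard error 0.06, adjusted p = 2.9e-08), and the difference between the knockouts was -0.02 (standard error 0.04, adjusted p = 0.643). Gars, for glycine, had CPM of 423, 379 and 414 in WT, 283, 275 and 288 in Atm-/-, and 236, 242 and 234 in Sirt6-/- in 3 separate ranges and fell by 0.53 log2 units in Atm-/- (adjusted p = 1.9e-07) and 0.77 in Sirt6-/- (adjusted p = 2.3e-09). Aars, for alanine, had CPM of 568, 489 and 558 in WT, 385, 388 and 393 in Atm-/-, and 423, 414 and 409.7 in Sirt6-/-, with Atm-/- the lowest. It fell by 0.48 log2 units (adjusted p = 1.7e-06) and 0.37 (adjusted p = 2.1e-05), and was the synthetase that was lower in Atm-/- than in Sirt6-/- (log2 fold change -0.09 with a standard error of 0.04, adjusted p = 0.0258), a call lost with library totals (adjusted p = 0.426), in the fit of all 9 samples (0.083), and without Atm-/- replicate 1, Atm-/- replicate 2 or Sirt6-/- replicate 1 (0.0575 to 0.0888). Exosc6 lies on the same strand and shares 14.3% of the exon bases of Aars.

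Nars, for asparagine, and Lars, for leucine, differed more in Sirt6-/-. Nars had CPM of 402, 364 and 389 in WT, 351, 326 and 352 in Atm-/-, and 210.4, 218 and 213 in Sirt6-/- and fell by 0.85 log2 units in Sirt6-/- (standard error 0.05, adjusted p = 5.3e-10). In Atm-/- it fell by 0.17 log2 units (adjusted p = 0.00651), a call lost with library totals (log2 fold change -0.01, adjusted p = 0.881), and the direct comparison gave 0.69 (adjusted p = 2.4e-12). Lars had CPM of 212, 206 and 222 in WT, 209, 196 and 202 in Atm-/-, and 152, 152 and 152 in Sirt6-/-, with all Sirt6-/- samples under the others and Atm-/- overlapping WT. It fell by 0.49 log2 units in Sirt6-/- (adjusted p = 1.8e-07), did not pass in Atm-/- (log2 fold change -0.08 with a standard error of 0.05, adjusted p = 0.130), except without WT replicate 2 (adjusted p = 0.0435), and was 0.42 higher in Atm-/- than in Sirt6-/- (adjusted p = 7.5e-09).

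Iars, for isoleucine, and Mars, for methionine, were the synthetases called higher in Atm-/-. Iars had CPM of 245, 229 and 243 in WT, 324, 293 and 306 in Atm-/-, and 221, 219.7 and 218 in Sirt6-/-, with Atm-/- above all other samples. It rose by 0.36 log2 units (standard error 0.05, adjusted p = 1.5e-05) and was 0.49 above Sirt6-/- (adjusted p = 9.5e-10). In Sirt6-/- the difference was -0.12 (standard error 0.04, adjusted p = 0.0253), and it passed in 1 of 6 fits that left out 1 library, the one without WT replicate 2, with adjusted p of 0.0543 to 0.0663 in the others and 0.556 with library totals. Mars had CPM of 126, 131 and 127 in WT, 154, 156 and 153 in Atm-/-, and 137, 132 and 138 in Sirt6-/- and rose by 0.26 log2 units in Atm-/- (adjusted p = 9.7e-05), with 0.19 between the knockouts (adjusted p = 0.000346). In Sirt6-/- it did not pass (log2 fold change 0.09 with a standard error of 0.05, adjusted p = 0.0933) with TMM, but passed as higher with library totals (0.18, adjusted p = 0.00274). Mars and Ddit3 lie tail to tail and share 68 exon bases.

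The other 4 synthetases were lower in both knockouts. Cars, for cysteine, fell by 0.27 log2 units in Atm-/- (adjusted p = 0.000974) and 0.55 in Sirt6-/- (adjusted p = 1.7e-06). Eprs, which charges glutamate and proline, fell by 0.35 log2 units (adjusted p = 2.1e-05) and 0.57 (adjusted p = 1.0e-07). Yars, for tyrosine, fell by 0.34 log2 units (adjusted p = 1.8e-05) and 0.29 (adjusted p = 8.0e-05). Wars, for tryptophan, fell by 0.17 log2 units (adjusted p = 0.0112) and 0.33 (adjusted p = 0.000179). With library totals the Atm-/- calls of Cars (adjusted p = 0.119) and Wars (adjusted p = 0.956) were lost, and that of Wars was also lost without Atm-/- replicate 2 (adjusted p = 0.0531).

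Vldlr, a lipoprotein receptor that ATF4 can induce, is not an amino acid gene, and showed the largest fall of any member in Atm-/-. Its CPM were 89.7, 52.2 and 92.0 in WT, 9.12, 9.93 and 9.54 in Atm-/-, and 31.5, 34.1 and 29.5 in Sirt6-/-. The ranges were far apart, although WT replicate 2 was lower than the other WT libraries. Vldlr fell by 3.04 log2 units in Atm-/- (standard error 0.17, adjusted p = 1.0e-09) and by 1.30 in Sirt6-/- (standard error 0.16, adjusted p = 2.9e-06), and Atm-/- was lower than Sirt6-/- by 1.73 (standard error 0.09, adjusted p = 2.7e-13).

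Ordered by their means, 18 of the 41 members ran WT, Atm-/-, Sirt6-/- from high to low, and for 13 of these no neighbouring genotypes overlapped. Another 10 ran WT, Sirt6-/-, Atm-/-, with 6 in separate ranges. The 13 remaining members had a knockout at the top: Atf3, Ppp1r15a, Cbs, Mars, Shmt1, Mthfd1, Iars, Cth, Slc38a2, Nupr1, Aldh18a1, Pycr1 and Slc1a4. The shares of all genes with these orders and separate ranges were not counted. The counts therefore describe the members only and do not set them apart from other genes. Split by the promoter letters, the 12 members with TGATGNAA had 10 lower and 2 higher in Atm-/- (median log2 fold change -0.55). The 19 with a window but no match had 13 lower and 4 higher (-0.33). In Sirt6-/- the counts were 8 lower and 2 higher with the motif (median -0.33), and 14 lower and 2 higher without it (-0.46). In Atm-/- against Sirt6-/- the members with the motif were 5 higher and 6 lower (median log2 fold change -0.06), and those without it 12 higher and 5 lower (0.32). Of all genes tested against WT, 33.6% were lower and 34.7% higher in Atm-/-, and 37.4% and 39.2% in Sirt6-/-. Between the knockouts, 38.0% of all genes were higher and 37.8% lower in Atm-/-. Calls among other genes that hold the motif were not counted, so these counts are not tied to the motif. The difference between members with and without the motif was not tested.

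The genes around the list were read from wider lists. Over all genes tested, 34.7% were called higher and 33.6% lower in Atm-/- against WT, and 39.2% and 37.4% in Sirt6-/- against WT. In Atm-/- against Sirt6-/- the shares were 38.0% and 37.8%. Counts near these shares do not set a list apart from other genes. The 15 genes of eIF2, its kinases, phosphatase partner and exchange factor eIF2B stand upstream of ATF4. In Atm-/- 8 were higher and 4 lower than in WT, which became 11 and 2 with library totals, and in Sirt6-/- 4 were higher and 8 lower. Impact, an inhibitor of the kinase GCN2, rose most in both, by 0.79 log2 units (adjusted p = 8.1e-08) and 1.92 (adjusted p = 1.4e-12), with CPM of 42.0, 45.8 and 49.2 in WT, 81.6, 80.6 and 75.5 in Atm-/-, and 177, 180.0 and 162 in Sirt6-/-. Eif2b3 rose by 0.45 log2 units in Atm-/- (adjusted p = 0.000179), and Eif2b5 by 0.37 in Sirt6-/- (adjusted p = 1.2e-05), both subunits of eIF2B. Eif2ak2, the kinase PKR, fell by 0.57 log2 units (adjusted p = 5.0e-06) and Ppp1r15b by 0.39 in Atm-/- (adjusted p = 4.0e-06). In Sirt6-/- the eIF2 subunit genes Eif2s2 and Eif2s3x fell by 0.84 log2 units (adjusted p = 3.0e-10) and 0.75 (adjusted p = 5.8e-10). In the direct comparison 11 were higher and 3 lower in Atm-/-, with Eif2s3x at 0.77 and Eif2b3 at 0.71 against Impact at -1.12 and Eif2ak3, the kinase PERK, at -0.39.

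The 12 cytosolic synthetase genes and complex scaffolds outside the list had 5 higher and 2 lower in Atm-/- (9 and 0 with library totals, so that neither fall passed). Farsa and Eef1e1 rose there by 0.52 log2 units (adjusted p = 4.7e-07) and 0.43 (adjusted p = 3.1e-05), and Dars and Vars fell by 0.26 (adjusted p = 0.000153) and 0.12 (adjusted p = 0.0202, or 0.134 without Atm-/- replicate 1). In Sirt6-/- 9 were lower and 1, Farsa, higher (0.19, adjusted p = 0.00269), or 9 and 3 with library totals, and Dars and Vars fell by 0.88 log2 units and 0.75 (adjusted p = 6.3e-10 and 6.1e-10). In Atm-/- against Sirt6-/-, 11 were higher and 0 lower, led by Eef1e1 at 1.08 (adjusted p = 1.4e-12) and Hars at 0.97 (adjusted p = 3.1e-14). The 17 mitochondrial synthetases had 6 higher and 3 lower in Atm-/- (8 and 0 with library totals, so that no fall passed). In Sirt6-/- they had 8 higher and 4 lower. Under TMM, 35.3% were higher and 17.6% lower in Atm-/-, against 34.7% and 33.6% of all genes. In Sirt6-/- 47.1% were higher and 23.5% lower, against 39.2% and 37.4% of all genes. Fars2 rose in both, by 1.29 log2 units (adjusted p = 2.8e-06) and 1.06 (adjusted p = 3.8e-05). Sars2 rose by 0.69 log2 units in Atm-/- and Pars2 by 0.82 in Sirt6-/- (adjusted p = 6.4e-05 and 4.9e-05), while Mars2 fell by 1.42 and Yars2 by 0.68 in Sirt6-/- (adjusted p = 1.1e-07 and 4.4e-06). Iars2 was among the falls in Atm-/- (-0.26, adjusted p = 0.000380). Between the knockouts 6 were higher and 4 lower in Atm-/- (9 and 3 with library totals), with Mars2 at 1.30 and Nars2 at 0.57 against Rars2 at -0.56 and Wars2 at -0.49.

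Other partners and targets of ATF4 numbered 18, of which Gdf15 and Fgf21 had too few reads to be tested, with at most 14 and 20 reads in any library. Of the 16 tested, 4 were higher and 8 lower in Atm-/-, and 7 higher and 8 lower in Sirt6-/-. Slc6a9, a glycine carrier, and Jdp2, a basic leucine zipper factor, fell most in Atm-/-, by 1.42 log2 units (adjusted p = 1.3e-06) and 1.39 (adjusted p = 5.2e-10). Sesn2, which senses leucine, and Vegfa, a vascular growth factor, fell most in Sirt6-/-, by 1.47 log2 units (adjusted p = 2.1e-06) and 0.79 (adjusted p = 2.3e-08). In the other direction, Ddit4, an mTORC1 inhibitor, rose by 2.31 log2 units in Sirt6-/- (adjusted p = 2.6e-10), with CPM of 9.22, 6.11 and 9.11 in WT, 12.1, 13.1 and 13.2 in Atm-/-, and 40.0, 41.6 and 39.6 in Sirt6-/-. Stc2, a secreted glycoprotein, rose by 1.54 log2 units (adjusted p = 1.7e-07) and 2.21 (adjusted p = 9.7e-10). Trib1, a relative of Trib3, rose by 0.87 log2 units in Atm-/- (adjusted p = 8.7e-09). In Atm-/- against Sirt6-/-, 3 were higher and 9 lower (5 and 9 with library totals), with Ddit4 at -1.65 and Trib2 at -1.36 the largest falls and Nars2 (0.57, also counted among the mitochondrial synthetases) and Trib1 (0.37) the largest rises.

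ATF6 and IRE1 run 2 other arms of the response to misfolded protein in the endoplasmic reticulum. RNA levels of their target and sensor genes also differed between the knockouts. The activity of these arms was not measured. Of 18 chaperone, quality control and sensor genes, 17 were lower and 0 higher in Atm-/- (14 and 1 with library totals), led by Dnajb9 (-1.14, adjusted p = 2.3e-08) and the transcription factor Xbp1 (-1.06, adjusted p = 3.1e-07). In Sirt6-/- 10 were higher and 6 lower (11 and 4 with library totals). The chaperone genes Pdia6 and Calr rose there by 1.03 log2 units (adjusted p = 5.8e-11) and 0.93 (adjusted p = 4.6e-11), and the sensors Ern1 and Atf6 fell by 2.03 (adjusted p = 1.0e-10) and 1.54 (adjusted p = 2.3e-12). Against Sirt6-/-, Atm-/- was lower for 16 and higher for 2, the sensors Ern1 (1.64) and Atf6 (1.40), and the lowest were Herpud1 (-1.48) and Sdf2l1 (-1.43).

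The last list held 12 other one-carbon and glycine enzymes. In Atm-/- 11 were tested, with 3 higher and 5 lower. In Sirt6-/- 10 were tested, with 5 higher and 5 lower, where 39.2% of all genes were higher and 37.4% lower. Gldc, the decarboxylase of the glycine cleavage system, had 0, 4 and 1 reads in WT and 6, 8 and 6 in Sirt6-/-. In Atm-/- it had 219, 220 and 172 reads (adjusted p = 3.5e-09 against WT and 2.8e-12 against Sirt6-/-). Gldc passed the low-count filter only through the Atm-/- libraries where it was high, so these p-values are not independent of that selection. Mtr, methionine synthase, rose by 0.62 log2 units in Atm-/- (adjusted p = 4.1e-05). Aldh1l1, the cytosolic relative of Aldh1l2, had 62, 74 and 52 reads in WT, 16, 27 and 18 in Atm-/- and 2, 6 and 9 in Sirt6-/-, and was called lower in both (adjusted p = 0.000286 and 5.5e-06). In Sirt6-/- the folate carrier Slc25a32 fell by 1.15 log2 units (adjusted p = 1.2e-09), while Mthfs and Amt rose by 1.50 (adjusted p = 0.0125) and 0.88 (adjusted p = 0.00922) from low counts, of which Mthfs was lost without WT replicate 1 (adjusted p = 0.0652). Between the knockouts 6 were higher and 3 lower in Atm-/- (7 and 2 with library totals), with Amt among the falls (-0.78). The call of Amt was lost without Atm-/- replicate 1, Atm-/- replicate 3, Sirt6-/- replicate 1 or Sirt6-/- replicate 2 (adjusted p of 0.0573 to 0.0725). Aldh1l1 was called higher (adjusted p = 0.00748), or not without Sirt6-/- replicate 1 (adjusted p = 0.0507).

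**Figure D4:**
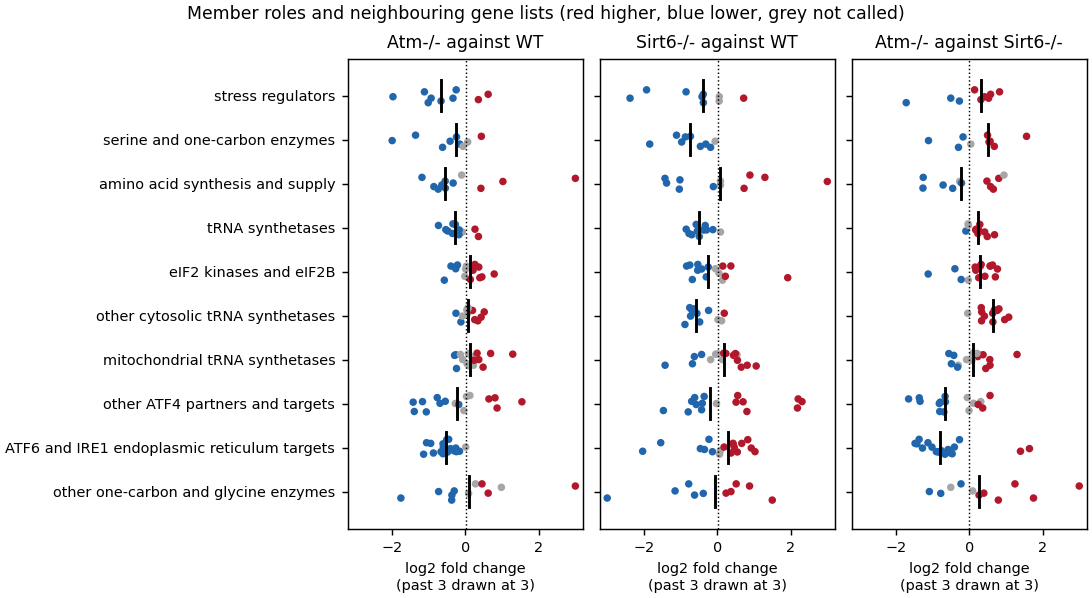
Each point is a gene, placed by its fitted log2 fold change (values past 3 drawn at 3), for 4 member groups and 6 neighbouring lists in the 3 comparisons. Red points were called higher, blue lower and grey neither, black bars are list medians, and the dotted line is the median of all genes tested. Medians of the member groups sit left of the line in the comparisons with WT except amino acid supply in Sirt6-/-, and the median of the ATF6 and IRE1 targets lies left in Atm-/- and right in Sirt6-/-.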

How the data were processed

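Poly(A) RNA was sequenced from 9 MEF samples, 3 WT, 3 Atm-/- and 3 Sirt6-/-, grouped by the genotype label. For each sample the authors deposited whole read counts of 24341 genes by symbol, not normalized. The authors also deposited RPKM, made from the counts with a listed transcript length, and these were used only to compare levels between genes and for marker lists. The submitters' processing notes name the build mm10; the aligner and counter are not given in the sources used here. The library protocol names no strand-marking step.

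Each pair of genotypes was fitted alone in edgeR 4.0.16 (R 4.3.3) with filterByExpr, TMM, glmQLFit and glmQLFTest, and adjusted p under 0.05 (Benjamini-Hochberg over all genes tested) was a call. Standard errors of log2 fold changes were derived from that test, as the absolute log2 fold change divided by the square root of its F value. Per-sample values are CPM with TMM factors over all 9 samples. A read is a count without molecular identifiers, so the limit that 3 reads set covers counting error only. No sample pair was identical, and within a genotype the chi-square of a pair was 5.24 to 16.4 a gene, above counting noise. WT replicate 2 gave 16.4 with WT replicate 1 and 15.1 with WT replicate 3, while WT replicates 1 and 3 gave 6.43. The highest value within a knockout was 6.88, between Atm-/- replicates 1 and 2.

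The members and lists were chosen with earlier results of these data known. Sample values are given for all stress regulators, Asns, Phgdh, Psat1 and the 3 largest rises and falls of each role and comparison; wider lists name the 2 largest rises and falls with at least 10 reads on average. Some genes that this rule names are not reported here. Alternatives were DESeq2 size factors, library totals, no filter and a stricter one (1 CPM in 3 samples), a joint fit of all 9 samples, a replicate block, the Wald test of DESeq2 1.42.0, each sample left out, and a 2-fold threshold.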

Additional observations from a re-analysis of the deposited data

How the results depend on the processing

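The counts of members called and their medians stayed within 1.5 times or 1 SD under DESeq2 size factors, both filter settings, a joint fit of all 9 samples and the Wald test of DESeq2. With library totals the median of Atm-/- against WT moved to -0.17, and Psat1 in Atm-/- against WT changed sign to 0.011 without passing. Requiring a 2-fold change left 2 members higher and 7 lower in Atm-/- against WT, 2 and 9 in Sirt6-/- against WT, and 1 and 5 in Atm-/- against Sirt6-/-, fewer by construction. The share of all genes past 2-fold was not counted, so these counts do not set the members apart from other genes. Leaving out 1 sample gave 7 to 8 higher and 26 to 30 lower in Atm-/- (median -0.41 to -0.32), 5 higher and 25 to 31 lower in Sirt6-/- (median -0.47 to -0.38), and 21 to 24 higher and 12 to 14 lower between the knockouts (median 0.22 to 0.26). The samples share only a replicate number: same-numbered samples had correlations of -0.0151 to 0.0588 in their deviations from the group means, and no label ties them. With a replicate block, 8 members were higher and 29 lower in Atm-/- (median -0.34), 5 and 28 in Sirt6-/- (-0.39), and 22 and 13 between the knockouts (0.24). The block ended the calls of Slc3a2 and Slc7a3 in Sirt6-/- (adjusted p of 0.0578 and 0.073, edgeR) and of Cbs between the knockouts (0.0766), and no other member call. Of 1594 values of single members over these settings, 1507 kept direction and side of the threshold, 58 lost and 13 gained a call, 15 values that were not called changed sign, and 1 called value did. Slc7a3 had 11 to 50 reads a sample and Cbs 0 to 49, so depth limits what these genes can show.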
